A study of Mus musculus with 18 samples.

Results

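Here 8 listed genes of N-glycan branching and related steps were followed by RNA-Seq in the ventral dentate gyrus of adult male mice. They were Mgat1, Mgat2, Mgat3, Mgat4a, Mgat4b, Mgat5, Mgat5b and Fut8. They were taken by symbol from the 34620 genes listed in the counts. All 8 had enough reads to enter the test, out of 17421 genes that did. The 6 libraries came from Swiss Webster males, an outbred strain, aged 8 to 12 weeks, 2 libraries each for WT, F1 and F2. WT males came from a lineage whose mothers and grandmothers were WT. F1 males were themselves WT at the 5HT1A serotonin receptor locus, and their mothers were 5HT1A-/+ heterozygotes, which carry 1 disrupted copy of the receptor gene. F2 males were the sons of F1 females mated with WT males, so that their mothers were WT and their grandmothers 5HT1A-/+. All males analysed thus lacked the receptor mutation. The paper describes F1 as the WT pups of crosses between heterozygotes, so their fathers carried 1 disrupted copy as well. The comparison asks what differs with the genotype of the parents (F1) or maternal grandparents (F2). Female and male ancestors cannot be told apart in these libraries. The animals came from at least 3 litters. How many animals stand behind each library was not given in the sources used here, and p-values measure only the spread between these libraries, which may be technical.

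N-glycans are sugar trees attached to asparagine residues of membrane and secreted proteins while these pass through the endoplasmic reticulum and the Golgi. Mgat1 adds the N-acetylglucosamine that turns a trimmed mannose core into a hybrid or complex glycan, and Mgat2 adds the one that starts the other main antenna. Mgat4a, Mgat4b and Mgat5 add further branches. Mgat3 adds a bisecting N-acetylglucosamine to the core mannose, after which the other branching enzymes act poorly on that glycan. Fut8 adds a fucose to the base of the core. Mgat5b, a relative of Mgat5 known from brain, branches O-mannosyl glycans. Bisected and core-fucosylated glycans are abundant in brain.

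The abbreviation MGAT is also used for monoacylglycerol acyltransferases, which are lipid enzymes. In RefSeq's gene table, MGAT1 and MGAT2 are synonyms of Mogat1 and Mogat2, whereas Mgat3 carries the synonym GnT-III, the bisecting glycosyltransferase. The study placed Mgat3 among its glycerophospholipid metabolism genes and named it a monoacylglycerol acyltransferase. It picked Mgat3 from these same libraries, so the gene's change here is not independent evidence. Mogat1 had between 0 and 4 reads per library and Mogat2 between 0 and 2. Neither was tested. The symbol Mogat3 was not among the genes listed in the counts.

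In mm9 coordinates, with GENCODE M1 annotation, all 8 are protein-coding genes. Mgat3 lies on the plus strand at chr15:80004151-80045949 and is annotated with 1 transcript and 4665 exonic bases. Mgat5 lies on the plus strand at chr1:129101563-129380281, and Mgat4a on the minus strand of the same chromosome at chr1:37496185-37597861. Mgat1 (chr11:49057693-49076532), Mgat4b (chr11:50024392-50048605) and Mgat5b (chr11:116780177-116848262) share a chromosome and the plus strand. Mgat2 (chr12:70285145-70287759) and Fut8 (chr12:78340052-78577325) are also on the plus strand. No 50-base stretch of the 8 genes' protein-coding transcripts occurred exactly in those of another gene. Near-identical stretches and noncoding transcripts were not searched, so sharing of reads with them cannot be judged from this. Only Mgat2 overlapped another gene's exons, by 21 bases of the opposite-strand gene 1110034A24Rik (0.803% of its exonic length).

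The promoters of Mgat5 and Mgat5b are printed because Mgat5 was called in F2 and its relative Mgat5b was not, a contrast between the genes that was not itself tested. Each is the 250 bases upstream of the RefSeq start, on the plus strand of GRCm38.p6, read 5′ to 3′, at chr1:127204736-127204985 for Mgat5 and chr11:116918613-116918862 for Mgat5b. Capitals mark the GC box GGGCGG, searched on both strands.
Mgat5: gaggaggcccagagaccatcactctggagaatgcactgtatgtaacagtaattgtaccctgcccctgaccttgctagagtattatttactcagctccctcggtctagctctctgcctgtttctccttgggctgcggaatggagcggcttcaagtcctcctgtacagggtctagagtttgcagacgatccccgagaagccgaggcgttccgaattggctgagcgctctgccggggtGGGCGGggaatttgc
Mgat5b: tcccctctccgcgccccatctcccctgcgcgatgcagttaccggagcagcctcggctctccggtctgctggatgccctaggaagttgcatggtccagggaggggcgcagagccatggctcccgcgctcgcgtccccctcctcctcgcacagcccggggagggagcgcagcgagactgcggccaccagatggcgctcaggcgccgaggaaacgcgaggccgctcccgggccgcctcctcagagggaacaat
The Mgat5 window held 1 GC box, 11 CpG dinucleotides and 56.0% G+C, and that of Mgat5b held no GC box, 25 CpG and 70.8% G+C. Over all 32851 such windows, 32.7% held a GC box and the median was 6 CpG. RefSeq windows were found for 6 of the 8 genes, 12 windows in all. The cyclic AMP response element TGACGTCA (1.55% of all windows), the E-box CACGTG (6.02%) and the TATA box TATAAA (12.4%), also searched on both strands, occurred in none of the 12. Mgat3 and Mgat4b had no entry.

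The libraries held between 26358165 and 33727936 reads counted on genes, and the number of libraries rather than depth limits the precision. Granule cell markers were present, and none of the markers of the 8 cell types examined was at 0 in any library. Some markers of other cell types were higher in F1 or F2. At q under 0.01 in edgeR's exact test, 4 of 8 oligodendrocyte, 2 of 3 oligodendrocyte precursor and 1 of 6 astrocyte markers were higher in F1. Microglial, endothelial, interneuron and mossy or CA pyramidal markers had 0 calls there in the exact test or the 3 other tools, with 4, 1, 1 and 1 at an unadjusted p under 0.05. In F2 2 of 8 oligodendrocyte, 1 of 3 precursor and 4 of 6 astrocyte markers were higher, with 5 of 6 microglial, 1 of 5 endothelial, 1 of 6 interneuron and 1 of 6 mossy or CA pyramidal markers. No marker was called lower. The quasi-likelihood test called 0 of the 8 oligodendrocyte markers in either group, and in F2 0 of 6 microglial and 1 of 6 astrocyte markers. Of 5 granule cell markers 0 were called in either group, although 2 in F1 and 4 in F2 had an unadjusted p under 0.05. The other tools (quasi-likelihood, likelihood-ratio and DESeq2) also called 0 of the 5. The summed granule cell markers were 779 to 794 CPM (read counts scaled to library size by TMM) in WT, 686 to 838 in F1 and 927 to 984 in F2. The summed level of the 6 astrocyte markers was 1958 to 2226 CPM in WT, 2411 to 3031 in F1 and 2783 to 3378 in F2. That of the 8 oligodendrocyte markers was 1118 to 2033, 2294 to 3056 and 1578 to 2967 CPM in the same order. Reads not wholly within annotated exons were compared with the total of counted, ambiguous and such unassigned reads. They made up 17.7% and 20.7% in WT, 13.8% and 12.2% in F1, and 13.9% and 17.4% in F2. Both WT libraries lay above all others. The part of this share in the comparisons with WT was not tested. In bulk tissue, fewer cells of a type and less RNA per cell cannot be told apart.

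Scaled by exon length, Mgat3 was the most abundant member in F1 and F2, and Mgat5 was the least abundant in every group. In WT the level of Mgat3 was 28.1 ± 0.377 CPM per kb of exon (mean ± SD, n = 2), and that of Mgat4b was 27.1 ± 1.30. These neighbours overlapped, since the WT libraries spanned 27.9 to 28.4 for Mgat3 and 26.2 to 28.0 for Mgat4b. Fut8 followed at 23.9 ± 1.76 and Mgat5b at 19.3 ± 2.66 CPM per kb, without overlap between them. Mgat2 at 11.5 ± 0.837 and Mgat1 at 10.8 ± 0.849 overlapped again. Mgat4a stood at 4.10 ± 0.271 and Mgat5 at 1.67 ± 0.0715 CPM per kb. In F1 and F2 the level of Mgat3 was 43.0 ± 3.36 and 42.7 ± 0.814 CPM per kb, above every library of every other member. In F2 the order of Mgat4b (24.6 to 25.4) and Fut8 (25.5 to 25.9) was exchanged. Parts of this order depend on the length used, here all annotated exons. With the longest transcript, Mgat4b (29.3 to 31.4) lay above Mgat3 in WT and stayed above Fut8 in F2, at 27.6 to 28.5 against 25.7 to 26.1. Mgat5b and Fut8 then overlapped in WT, and Mgat1, at 16.2 in place of 10.8 over all libraries, lay above Mgat2.

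**Figure D1:**
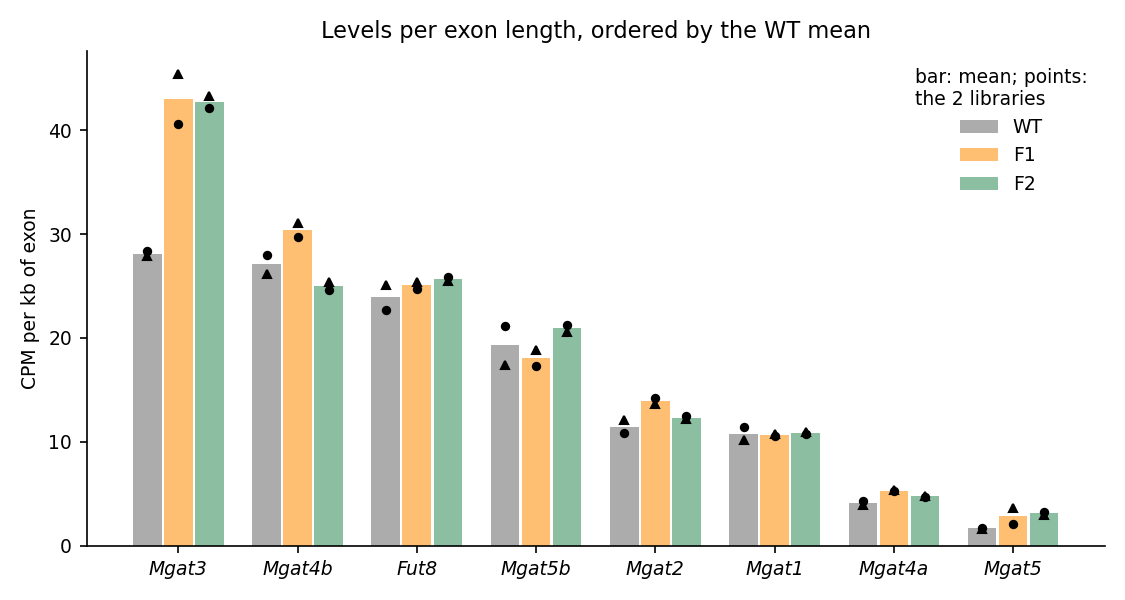
Level of each gene in CPM per kb of exon (vertical axis), ordered by the WT mean, with bars for the mean of WT, F1 and F2 and points for the 2 libraries of each group. Mgat3 and Mgat4b stood together in WT at 28.1 and 27.1, and Mgat3 stood apart at 43.0 in F1 and 42.7 in F2.

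Mgat3 was higher in both generations. It measured 132 and 130.0 CPM in the WT libraries, 189.6 and 212 in F1, and 197 and 202 in F2. All 4 F1 and F2 libraries lay above both WT libraries, and F1 and F2 overlapped. The increase was 1.53-fold in F1 (log2 fold change 0.61, SE 0.12, edgeR exact test adjusted p = 4.44e-06) and 1.52-fold in F2 (0.60, SE 0.12, adjusted p = 6.97e-06). F1 and F2 were compared with the same WT libraries, so these values are not independent of each other. F2 against F1 differed by -0.01 on the log2 scale, with a 95% interval from -0.23 to 0.22 (edgeR adjusted p = 1). The change passed q under 0.01 under all 18 alternative settings in both generations, with log2 fold changes of 0.54 to 0.70 in F1 and 0.58 to 0.63 in F2. Summed astrocyte, microglial, oligodendrocyte precursor and endothelial markers were also higher in every F1 and F2 library than in either WT library. Their part in the Mgat3 difference was not tested. The 6 microglial markers, for example, summed to 95.0 to 97.4 CPM in WT, 117 to 137 in F1 and 131 to 149 in F2.

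**Figure D2:**
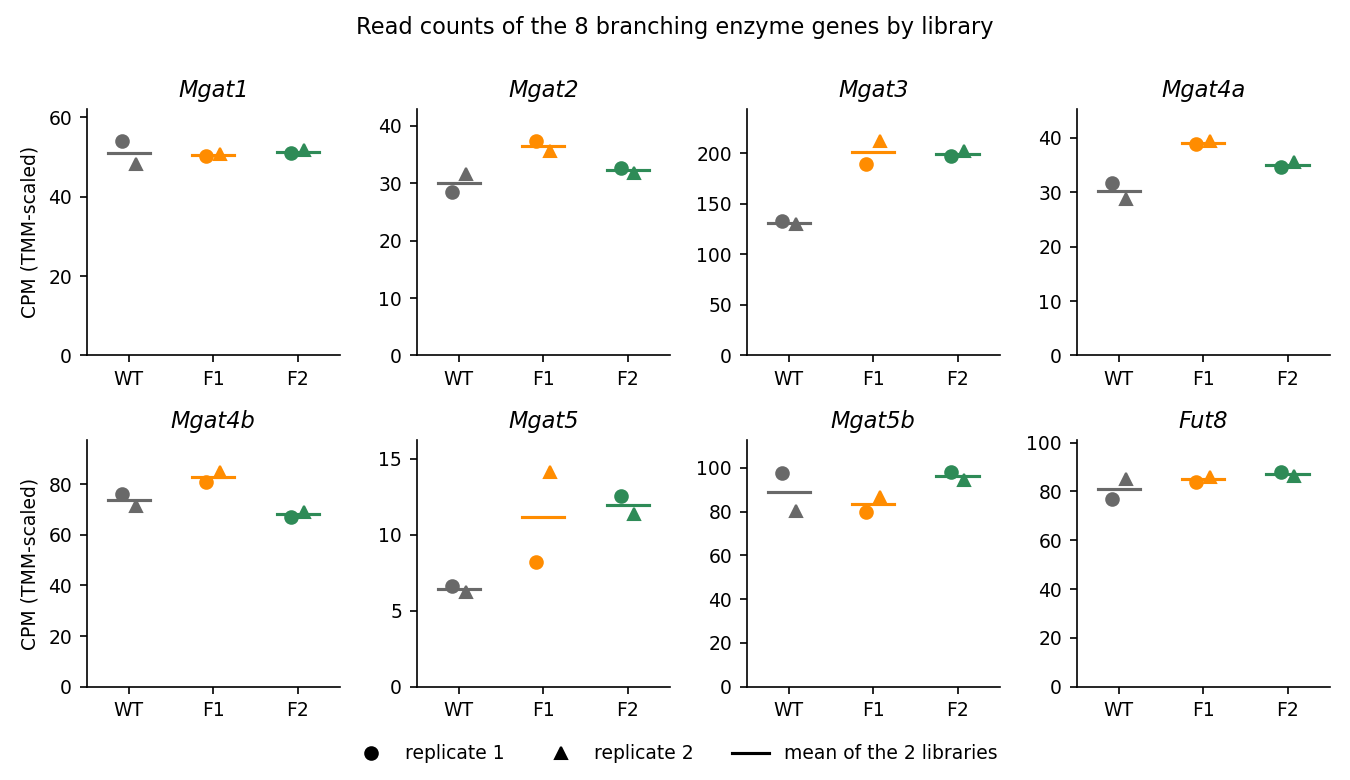
TMM-scaled CPM (vertical axes, from 0) of each gene in every library, with circles for replicate 1, triangles for replicate 2 and lines for the mean of WT, F1 and F2. Mgat3 sat at 130.0 to 132 CPM in WT and at 189.6 to 212 in F1 and F2, and the F1 libraries of Mgat5 lay far apart at 8.19 and 14.1.

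Mgat5, whose branch is favoured for extension by poly-N-acetyllactosamine chains, was the only other member called, and in F2 alone. Its libraries measured 6.62 and 6.23 CPM in WT, 8.19 and 14.1 in F1, and 12.5 and 11.4 in F2. All 4 F1 and F2 libraries lay above WT, with the F1 libraries on either side of F2. The F2 increase was 1.86-fold (log2 0.89, SE 0.24, edgeR exact test adjusted p = 0.00326). In F1 the value was 1.73-fold (0.79, SE 0.24, adjusted p = 0.0102), which missed the threshold, and F2 against F1 was 0.10 on the log2 scale (adjusted p = 1), so no difference between the generations was shown. The F1 value rested on replicate 2: without it the log2 fold change was 0.36 (adjusted p = 0.328), and without replicate 1 it was 1.14 (adjusted p = 1.48e-06). The F2 call was lost in edgeR's quasi-likelihood test (adjusted p = 0.0219) and when either WT or either F2 library was dropped. It held when either F1 library was dropped. The main test estimated dispersion over all 6 libraries, including the F1 pair. With dispersion from WT and F2 alone, the exact test gave log2 0.90 in F2 (adjusted p = 1.68e-05). The F2 call passed in 11 of 18 alternatives, and its log2 fold change was 0.83 to 0.97 over all 18. The astrocyte marker Gfap measured 190 and 197 CPM in WT, 222 and 387 in F1, and 363 and 285 in F2, and was highest in F1 replicate 2 as Mgat5 was. The other 5 astrocyte markers, and the sum of all 6 (3031 CPM in F1 replicate 2 and 3378 in F2 replicate 1), were highest in F2 replicate 1. The part of these markers in the Mgat5 values was not tested.

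Mgat5b, whose promoter is printed above beside that of Mgat5, gave 97.5 and 80.2 CPM in WT, 79.8 and 86.9 in F1, and 97.9 and 94.6 in F2. The F1 libraries overlapped those of WT, and F2 lay within or just above the WT range. Its log2 fold changes were -0.09 in F1 (95% interval -0.34 to 0.16) and 0.12 in F2 (-0.14 to 0.37). Within each library, the count of Mgat5 divided by that of Mgat5b was 0.0679 and 0.0777 in WT, 0.103 and 0.162 in F1, and 0.128 and 0.120 in F2, a ratio chosen after the values were seen.

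Mgat4a and Mgat4b, which add the same branch, did not pass the threshold in either generation. Mgat4a measured 31.7 and 28.8 CPM in WT, 38.9 and 39.4 in F1, and 34.7 and 35.5 in F2. Every F1 and F2 library lay above WT, at log2 fold changes of 0.37 in F1 (SE 0.13, edgeR adjusted p = 0.0245) and 0.21 in F2 (SE 0.13, adjusted p = 0.249). Mgat4b measured 76.2 and 71.1 CPM in WT, 80.7 and 84.6 in F1, and 66.9 and 69.1 in F2. Its F1 libraries lay above both WT libraries and its F2 libraries below, with log2 fold changes of 0.17 (SE 0.12, adjusted p = 0.323) and -0.11 (SE 0.12, adjusted p = 0.536). The difference of F2 from F1 was -0.28 (SE 0.12) and did not hold after adjustment over all genes in edgeR (adjusted p = 0.344).

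Mgat1, Mgat2 and Fut8, which build and modify the core on which branching takes place, did not pass the threshold in either generation. Mgat1, the entry step, measured 53.9 and 48.3 CPM in WT, 50.1 and 50.8 in F1, and 50.9 and 51.6 in F2. All F1 and F2 libraries lay between the WT libraries, and the 95% interval of the log2 fold change was -0.26 to 0.22 for F1 against WT and -0.23 to 0.24 for F2 against WT. Mgat2 measured 28.4 and 31.5 CPM in WT, 37.3 and 35.6 in F1, and 32.6 and 31.9 in F2. Its F1 libraries lay above WT (log2 0.28, SE 0.13, edgeR adjusted p = 0.119), and F2 lay barely above (0.10, SE 0.13, adjusted p = 0.648). Fut8, the core fucosyltransferase, measured 76.8 and 85.2 CPM in WT, 83.8 and 86.0 in F1, and 87.7 and 86.3 in F2, with log2 fold changes of 0.07 (95% interval -0.16 to 0.29) and 0.10 (-0.12 to 0.33).

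In all, 1 of the 8 genes passed q under 0.01 in F1 against WT, where 12.3% of all tested genes did, and 2 of 8 in F2, where 12.0% did. Both called genes were higher, a direction taken by 3.77% of all tested genes in F1 and 3.86% in F2. Mgat3 alone passed in both generations with the same sign, against 7.67% of all genes (1.6% higher in both). The quasi-likelihood test called Mgat3 alone in each generation, where it called 5.91% of all genes in F1 and 5.72% in F2. Counts of 1 and 2 among 8 genes do not set the group apart from this background. At q under 0.05, the threshold given in the study's methods, Mgat3, Mgat5 and Mgat4a passed in F1 (20.8% of all genes) and Mgat3 and Mgat5 in F2 (20.7%). The median log2 fold change of the 8 genes was 0.22 in F1 and 0.11 in F2, beside 0.01 and -0.00 over all tested genes. Both F1 libraries lay above both WT libraries for 5 of the 8 genes (29.8% of all tested genes) and below for 0 (30.6%), and both F2 libraries lay above for 5 (31.0%) and below for 1, Mgat4b (32.0%). All 4 F1 and F2 libraries lay above both WT libraries for 4 of the 8 (Mgat2, Mgat3, Mgat4a and Mgat5), as for 21.0% of all tested genes, and below for 0 of the 8, where 23.7% of all genes did so. Between F2 and F1, 0 of the 8 were called by the exact test (0.74% of all genes), 1 had an unadjusted p under 0.05, which was Mgat4b, and 0 were called by quasi-likelihood, likelihood-ratio or DESeq2 tests.

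**Figure D3:**
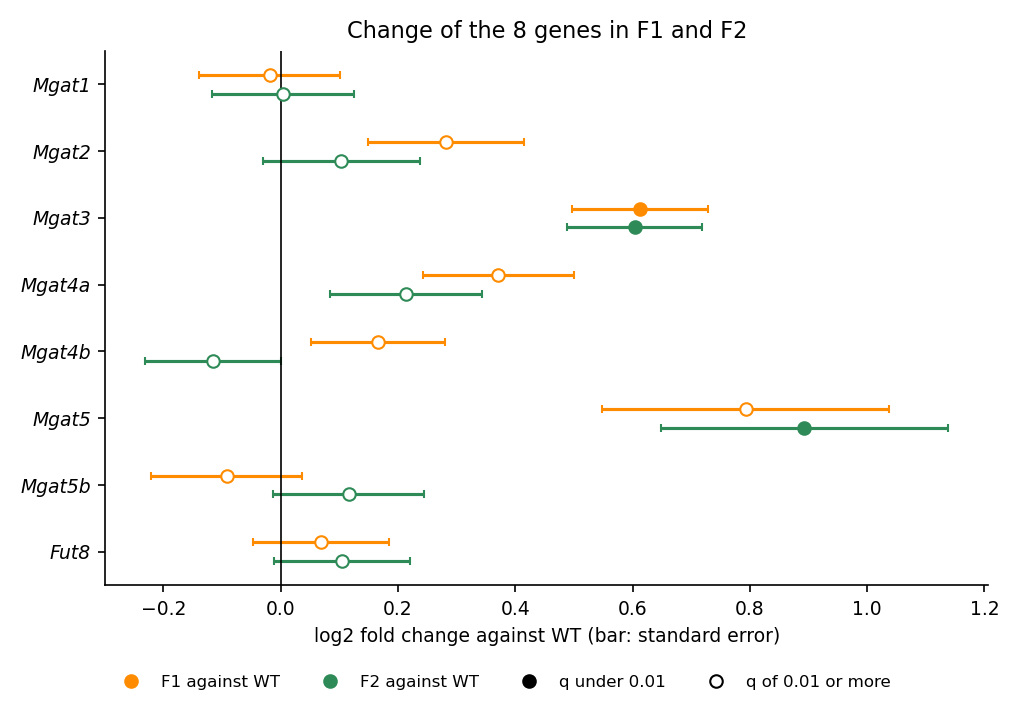
Log2 fold change against WT (horizontal axis) of each gene in F1 (orange) and F2 (green), with bars for 1 standard error and filled points for q under 0.01. Mgat3 stood at 0.61 and 0.60, Mgat5 at 0.79 and 0.89 with wider bars, and Mgat1 at -0.02 and 0.00.

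Because Mgat3 and the branch-adding enzymes act on the same glycan, their counts were compared within each library, where scaling between libraries has no effect. Mgat3 divided by the sum of Mgat4a, Mgat4b and Mgat5 was 1.16 and 1.22 in WT, 1.48 and 1.53 in F1, and 1.72 and 1.74 in F2. The groups did not overlap. The sum takes raw reads, and in every library Mgat4b gave more of them than Mgat4a or Mgat5. In F2 against F1, the log2 fold change was -0.01 for Mgat3, -0.16 for Mgat4a, -0.28 for Mgat4b and 0.10 for Mgat5, none of them called. The log2 ratio was higher by 0.34 in F1 and by 0.54 in F2 (exact two-sided permutation p = 0.333 for each, the smallest that 2 against 2 libraries allow), and by 0.44 over the 4 F1 and F2 libraries together (exact permutation p = 0.133, again the smallest possible). Mgat3 divided by Mgat5 behaved differently, at 20.0 and 20.9 in WT, 23.2 and 15.0 in F1, and 15.7 and 17.8 in F2. The F1 libraries lay on either side of WT and the F2 libraries below it, with log2 differences of -0.13 in F1 (exact permutation p = 1) and -0.29 in F2 (p = 0.333). The F1 difference turned to 0.18 without F1 replicate 2. Mgat3 made up 26.3% and 27.0% of the reads on the 8 genes in WT, 33.4% and 34.8% in F1, and 33.9% and 34.7% in F2.

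**Figure D4:**
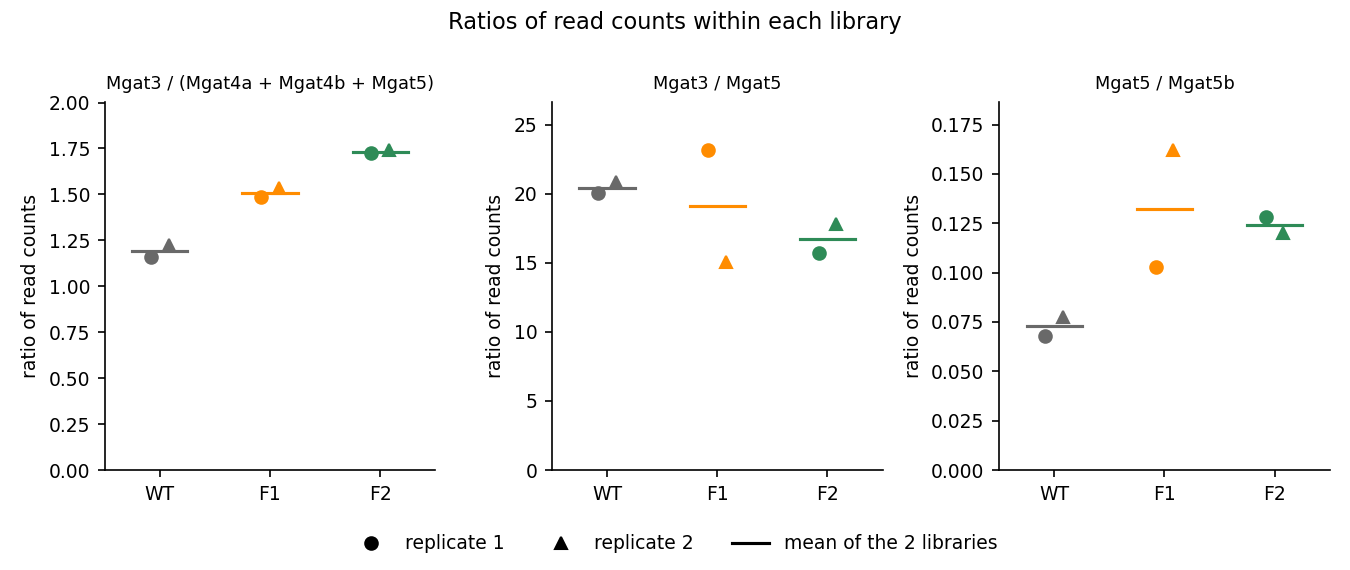
Ratios of read counts within each library (vertical axes, from 0) for Mgat3 over the sum of Mgat4a, Mgat4b and Mgat5, Mgat3 over Mgat5, and Mgat5 over Mgat5b, with lines for the group means. The ratio to the 3 branch-adding genes was 1.16 and 1.22 in the WT libraries and 1.72 and 1.74 in F2, and the ratio to Mgat5 had its lowest and highest values, 15.0 and 23.2, both in F1.

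The remaining pathway was described with 97 genes in 7 lists, all of them tested. In F1, 5 of the 97 passed (5.15%), 4 higher and 1 lower, and in F2 6 passed (6.19%), 5 higher and 1 lower, beside 12.3% and 12.0% of all tested genes. The quasi-likelihood test called 1 of the 97 in F1, which was St6gal1, and 2 in F2, among them Tgfbr2. The median log2 fold change of the 97 was 0.09 in F1 and 0.07 in F2. Of the steps before branching, 0 of 10 subunits of the oligosaccharyltransferase, which transfers the precursor to the protein, and 0 of 12 trimming enzymes passed in F1 or F2 by the exact test or by the 3 other tools. At an unadjusted p under 0.05 there were 0 oligosaccharyltransferase genes in F1 and 1 in F2, and 4 trimming genes in each. The trimming mannosidases Man2a1 and Man2a2, which act between Mgat1 and Mgat2, gave log2 fold changes of 0.14 and -0.16 in F1 and 0.02 and -0.13 in F2 (edgeR adjusted p from 0.395 to 0.97). Of 21 genes of dolichol-linked precursor assembly, Alg10b, a glucosyltransferase, passed in F2 (log2 1.18, adjusted p = 0.000172). Its F1 value was 0.78 (adjusted p = 0.0197), with the F1 libraries far apart at 11.5 and 21.3 CPM. The F2 libraries were at 25.4 and 17.8 CPM. For these 21 genes the quasi-likelihood test called 0 in F1 and F2, while likelihood-ratio and DESeq2 tests called 1 each in F2.

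Of 19 genes that extend and cap the antennae, 2 passed in F1. St6gal1, which adds terminal α2,6-linked sialic acid, measured 7.0 and 8.80 CPM in WT, 15.6 and 15.1 in F1, and 13.5 and 10.3 in F2. The groups did not overlap with WT, and the log2 fold change was 0.96 in F1 (edgeR adjusted p = 4e-05) and 0.60 in F2 (adjusted p = 0.0205). B3gat1, which makes the HNK-1 epitope, fell by 0.41 on the log2 scale in F1 (adjusted p = 0.00363), with -0.30 in F2 (adjusted p = 0.0434). In F2 0 of the 19 passed in the exact test, where 5 had an unadjusted p under 0.05, and quasi-likelihood, likelihood-ratio and DESeq2 tests called 0, 1 and 1. The galactosyltransferase B4galt1 gave -0.50 in F1 and -0.27 in F2 (adjusted p = 0.0297 and 0.29), and the fucosyltransferase Fut9 0.10 and 0.40 (adjusted p = 0.614 and 0.0104).

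Of 16 genes of nucleotide sugar supply, Cmas, which activates sialic acid, rose in F1 (log2 0.47, edgeR adjusted p = 0.0017; F2 0.16, adjusted p = 0.385). Fuk, a fucose salvage kinase, fell in F2 by 0.67 (adjusted p = 0.00285; F1 -0.56, adjusted p = 0.0149). Its WT libraries were far apart, at 40.2 and 26.8 CPM, and all F1 and F2 libraries lay below both. For these 16 genes the quasi-likelihood test called 0 in F1 and F2. The likelihood-ratio test called 2 in F1 and 1 in F2, and DESeq2 called 1 in each. The UDP-N-acetylglucosamine transporter Slc35a3, which supplies the donor used by the Mgat enzymes, gave -0.25 and -0.10 (adjusted p = 0.191 and 0.674). The 11 genes of N-glycan breakdown had a median log2 fold change of 0.11 in F1 and 0.07 in F2.

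Of 8 glycoproteins known to carry products of these enzymes, 1 passed in F1 and 3 in F2, all higher. Over all tested genes, 3.77% were called higher in F1 and 3.86% in F2. The quasi-likelihood test called 0 of the 8 in F1 and 1 in F2, which was Tgfbr2. Tgfbr2, a TGF-beta receptor subunit, measured 6.21 and 7.57 CPM in WT, 10.1 and 11.7 in F1, and 12.4 and 12.3 in F2 (log2 0.67, edgeR adjusted p = 0.00527, and 0.84, adjusted p = 0.000291). The integrin subunit Itgb1 and the receptor phosphatase Ptprz1 passed in F2 (0.48 and 0.44, adjusted p = 0.0072 and 0.00699). Some markers of other cell types were also called higher in F1 and F2, as counted above. Their part in the values of this list was not tested. Bace1, the beta-secretase whose bisected glycan depends on Mgat3, measured 80.7 and 79.0 CPM in WT, 95.5 and 106 in F1, and 97.8 and 103 in F2. All 4 F1 and F2 libraries lay above WT, and the log2 fold change of 0.33 in each generation missed the threshold (adjusted p = 0.0285 and 0.0328). Between F2 and F1, 0 of the 97 genes passed in the exact test or the 3 other tools, and 6 had an unadjusted p under 0.05.

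**Figure D5:**
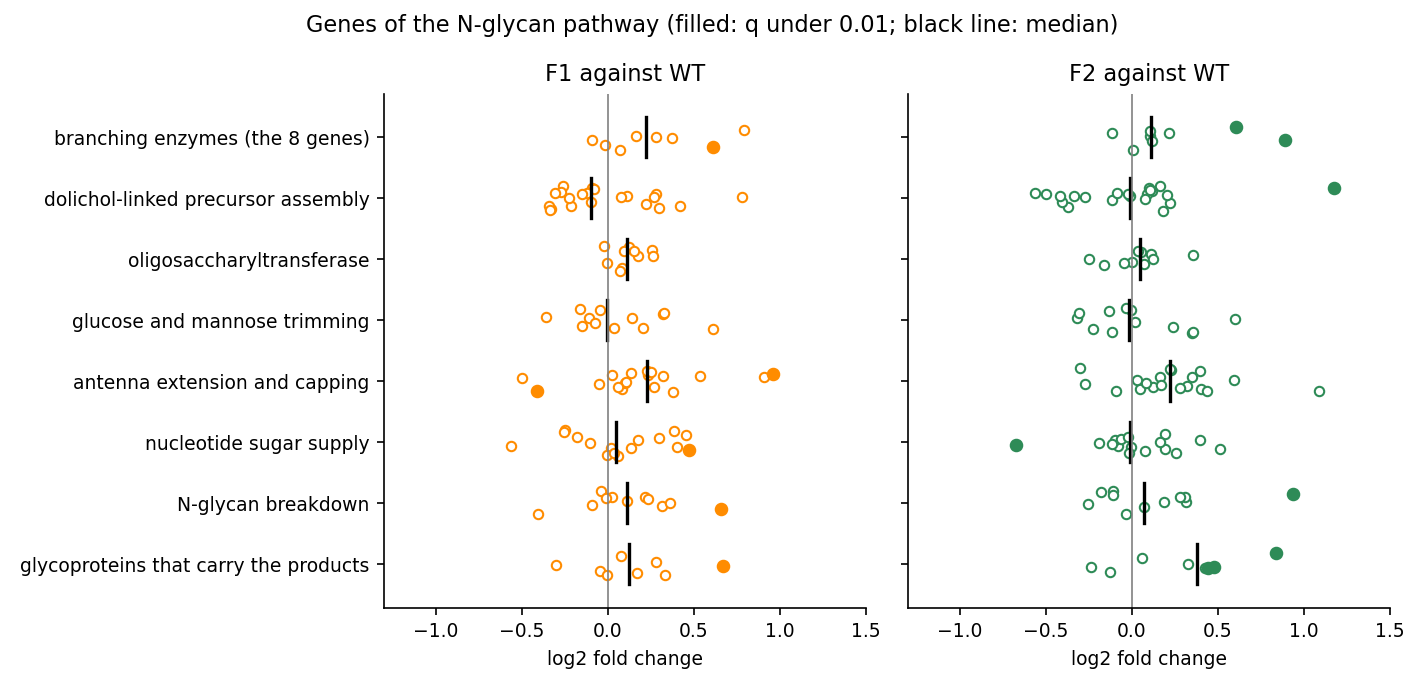
Log2 fold change against WT (horizontal axes) of the 8 genes, labelled branching enzymes, and of the genes in the 7 other pathway lists. F1 is left and F2 right, with filled points for q under 0.01 and black lines for the list medians. The medians of the precursor, oligosaccharyltransferase and trimming lists lay between -0.10 and 0.11, and the glycoprotein list was at 0.12 in F1 and 0.38 in F2.

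Among the lipid enzymes whose name resembles that of the Mgat genes, the acylglycerol acyltransferases Dgat1 and Dgat2 were both expressed. Dgat1, which completes triglyceride synthesis, measured 32.6 and 28.1 CPM in WT, 19.2 and 16.0 in F1, and 17.0 and 17.4 in F2. All F1 and F2 libraries lay below both WT libraries, and it fell by 0.79 in F1 (edgeR adjusted p = 2.04e-05) and by 0.82 in F2 (adjusted p = 1.05e-05) on the log2 scale. Dgat2, which catalyses the same step, gave 0.34 and 0.35 (adjusted p = 0.0366 and 0.0268). The study's genes changed in both generations, drawn from these same libraries, include Dgat1, Dgat2 and Tgfbr2. The values of these genes here are thus not independent evidence.

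Of 10074 genes with a mean of at least 10 CPM, those whose levels over the 6 libraries most resembled Mgat3 were Sparc, Tspan9, Rhou, 9430020K01Rik and Hepacam. The measure was the root mean square difference of log2 CPM, each gene centred on its WT mean, and it ranged from 0.0303 for Sparc to 0.0671 for Hepacam. Sparc, a secreted matrix glycoprotein, measured 166 and 159 CPM in WT, 229 and 269.7 in F1, and 249 and 246 in F2. Hepacam is an adhesion molecule known from astrocytes. These genes were chosen for their likeness, and the likeness carries no test.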

How the data were processed

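Ventral dentate granule cell layers were microdissected from cryosections of frozen brains perfused with RNAlater, and libraries were made with an Illumina TruSeq RNA kit. The authors aligned single-end reads of 50 bases to mm9 with TopHat, without new junctions, and counted them per gene with HTSeq in intersection-strict mode. The deposited values are these raw read counts, 1 file per library, with no normalization. Reads not wholly within annotated exons were not assigned to genes, 12.2% to 20.7% of counted, ambiguous and such unassigned reads. Ambiguous reads made up 1.33% to 1.53% of that total. Alignments that were not unique, 11245502 to 17028794 per library, were listed apart and are not in it. All these entries were left out of library sizes and tests. The bisulfite samples were not analysed here.

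Counts were filtered with filterByExpr, scaled by TMM (factors 0.982 to 1.015) and compared by the exact test of edgeR 4.0.16 (R 4.3.3), with tagwise dispersion estimated after a common value over all 6 libraries, and p-values were adjusted by Benjamini-Hochberg over 17421 genes. The study's methods name edgeR with tagwise dispersion but not its test. The threshold q under 0.01 follows its results, and 0.05, of its methods, was an alternative. Common dispersion was 0.0113, or 10.6% variation between libraries of a group. Standard errors and 95% intervals of log2 fold changes come from the mean counts and tagwise dispersion. Counting error is small at 26358165 to 33727936 reads per library. Alternatives were edgeR quasi-likelihood and likelihood-ratio tests with and without a replicate block, DESeq2 1.42.0, other scalings, filters and dispersions, and each library left out. Ratios were tested by exact permutation over libraries with SciPy 1.17.1. Scripts were tested on simulated counts. Replicates were no duplicates, with a chi-square per degree of freedom of 18.5 to 23.0.

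Named are the 8 genes, pathway list genes called in both generations, a set of key pathway and acylglycerol genes, and the 5 genes most like Mgat3. Cell type markers called in both generations are counted but not named. B3gat1, Cmas, Fuk, Alg10b, Itgb1, Ptprz1 and Gfap were added after their values were seen. A result that the rule covers is not reported here, and the counts of genes include it. The members, lists and tests were chosen with earlier results of these data known. Exon lengths and positions are from GENCODE M1 and promoters from RefSeq. Plots were made with matplotlib 3.10.9.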

Additional observations from a re-analysis of the deposited data

Results flagged for a closer look

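Mgat4b lay on opposite sides of WT in F1 and F2, with neither difference from WT past the threshold. Both F1 libraries (80.7 and 84.6 CPM) lay above both WT libraries (76.2 and 71.1 CPM), and both F2 libraries (66.9 and 69.1 CPM) lay below them. The log2 difference of F2 from F1 was -0.28, and it did not pass the edgeR exact test after adjustment over all genes (adjusted p = 0.344).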

How the results depend on the processing

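Of 432 recomputed log2 fold changes of the 8 genes (F1, F2 and F2 against F1, each under 18 alternatives), 409 kept their direction and side of the threshold, 7 lost the call, 3 gained it and 13 changed sign. None of the 13 had been called, and their reported sizes were at most 0.12. For F1 against WT, Mgat1 turned to 0.0043 without a filter and ranged from -0.0862 to 0.0664 with each library left out, Mgat5b from -0.215 to 0.0583 and Fut8 from -0.0026 to 0.156. For F2 against WT, Mgat1 turned to -0.0112 by library size alone and to -0.0229 when genes averaging under 50 counts were dropped, and ranged from -0.0637 to 0.0929 with each library left out, and Mgat5b from -0.0084 to 0.269. For F2 against F1, Mgat3 turned to 0.0086 with upper-quartile factors and ranged from -0.0890 to 0.0747 with each library left out, and Mgat5 from -0.241 to 0.547. Mgat3 stayed called in F1 and F2 under all 18. All changed calls were those of Mgat5, which passed in 3 of 18 alternatives in F1 and 11 of 18 in F2. With the quasi-likelihood test the calls over all genes fell from 2144 to 1029 in F1, from 2084 to 997 in F2 and from 129 to 2 in F2 against F1, those among the 8 genes in F2 from 2 to 1, and those among the 97 pathway genes from 5 to 1 and from 6 to 2. At q under 0.05 these were 3623, 3606 and 230 of all genes, 3 of the 8 in F1 and 2 in both generations, and 12, 15 and, in F2 against F1, 1 of the 97. The likelihood-ratio test without a block and RLE factors each gave 2 of the 8 in F1 and 2 in both generations.

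Same-numbered libraries did not deviate together (correlations of -0.00558 for WT and F1, -0.0939 for WT and F2 and -0.261 for F1 and F2), so the numbers were not taken as pairs. With the replicate block, the quasi-likelihood test called 848, 758 and 9 genes in F1, F2 and F2 against F1, 1 of the 8 genes in F2, and 1 and 2 of the 97. With the F2 numbers crossed, an alternative chosen after seeing the data, the block gave 1340, 1445 and 27 genes, 1 of the 8 in F2, and 3 and 5 of the 97.

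Leaving out each library in turn gave 988 to 2043 calls in F1, 703 to 2585 in F2 and 52 to 223 in F2 against F1. Among the 8 genes this gave 1 to 2 in F1, 1 to 2 in F2 and 1 to 2 in both, and among the 97 it gave 1 to 5 in F1 and 1 to 9 in F2, with 1 left in F1 without WT replicate 1 or F1 replicate 2 and 1 left in F2 without WT replicate 1 or F2 replicate 1. The counts moved by over 1.5 times without WT replicate 1 (988 in F1, 802 in F2), WT replicate 2 (1355 in F1), F1 replicate 2 (1072 in F1, 223 in F2 against F1), F2 replicate 1 (703 in F2, 52 in F2 against F1) and F2 replicate 2 (973 in F2). The lone library left in a group is then assumed to vary like the others. The log2 difference of Mgat3 over Mgat5 in F1 ranged from -0.44 to 0.18. With the longest transcript as length, Mgat4b stood at 30.8 and Mgat1 at 16.2 CPM per kb. The cause of these shifts was not tested.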
